A study of Homo sapiens with 19 samples.

Results

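The 4 poly(A) RNA libraries of MDA-MB-231 cells that received control siRNA and no vector were compared with each other, as 2 pairs: Ctrl replicates 1 and 2 (NC replicates 1 and 2) and Ctrl replicates 3 and 4 (NC replicates 3 and 4). They were chosen by their sample titles and make up 4 of the 19 samples of the series, 17 of which have a table analysed here. MDA-MB-231 is an established human breast cancer line, and all 4 libraries carry the same label: the same line and the same control siRNA, transfected at 30 nM. The series asks how depletion of STAT3, a transcription factor activated by cytokine receptors, or of HMGN5, a protein that binds nucleosomes, changes the transcriptome. The controls are set here beside the HMGN5 siRNA libraries (siHMGN5, 2) and the STAT3 siRNA libraries (siSTAT3, 2), which were also transfected at 30 nM without a vector. A further reference is the group that received control siRNA and an empty control vector (NC_Vec, 3 libraries). Levels are also given for STAT3 siRNA with the control vector (siSTAT3_Vec, 3) and STAT3 siRNA with lentiviral HMGN5 (siSTAT3_HMGN5, 3). No date, passage or batch is given in the labels, and they do not say whether replicates came from separate cultures.

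A control siRNA enters the RNA interference machinery without a transcript that it is designed to match, and libraries made with it set the baseline against which a knockdown is read. The spread of such libraries mixes the sampling of reads, which matters less as a transcript gains reads, with any difference in the RNA itself or in its preparation. Each value below belongs to 1 Ensembl transcript. The files and tables at hand pair 0 of the 175775 transcript IDs with a gene, so the 4 transcripts printed are given by ID without gene name, function, sequence or genome position. For the same reason the cell line markers and the levels of STAT3 and HMGN5 were not checked here.

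Libraries held 19331347 to 19509422 estimated reads in the 4 controls, and 81669 to 83995 transcripts had at least 1 read. Levels are given as CPM, counts scaled by library size, and 10 CPM stood for 193 to 195 estimated reads. A limit of 3 reads, chosen here as the upper bound for a count of 0, stood for 0.154 to 0.155 CPM. NC replicates 3 and 4 were below NC replicates 1 and 2 in the number of transcripts with a read (81669 and 81749 against 83995 and 82410) and in the percentage of reads given to transcripts shorter than 300 bases (1.15% and 1.18% against 1.2% and 1.26%). The 100 transcripts most abundant in the controls took 15.01% to 16.2% of the reads, with no gap between the pairs. The part of these differences in the results below was not tested.

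The 2 libraries of each pair lay close together and the pairs lay far apart. This was clearest in 206 transcripts that averaged 10 CPM or more and whose estimated reads were whole numbers (within 0.0015) in all 4 controls, and which were therefore treated as having reads that no other transcript shared. Across these, the median absolute log2 ratio between 2 libraries was 0.08 and 0.10 inside the pairs, where counting noise alone would give 0.06. Between a library of one pair and a library of the other it was 0.31 to 0.34 over the 4 combinations. At most 1 of the 206 transcripts differed 2-fold or more inside a pair, against 24 to 33 between the pairs (11.7% to 16.02%). A median of 92.4% of a transcript's variation over the 4 controls, as a sum of squares of log2 levels, lay between the pairs. Part of such a sum falls between the pairs even where they do not differ, and no reference share was computed.

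**Figure D1:**
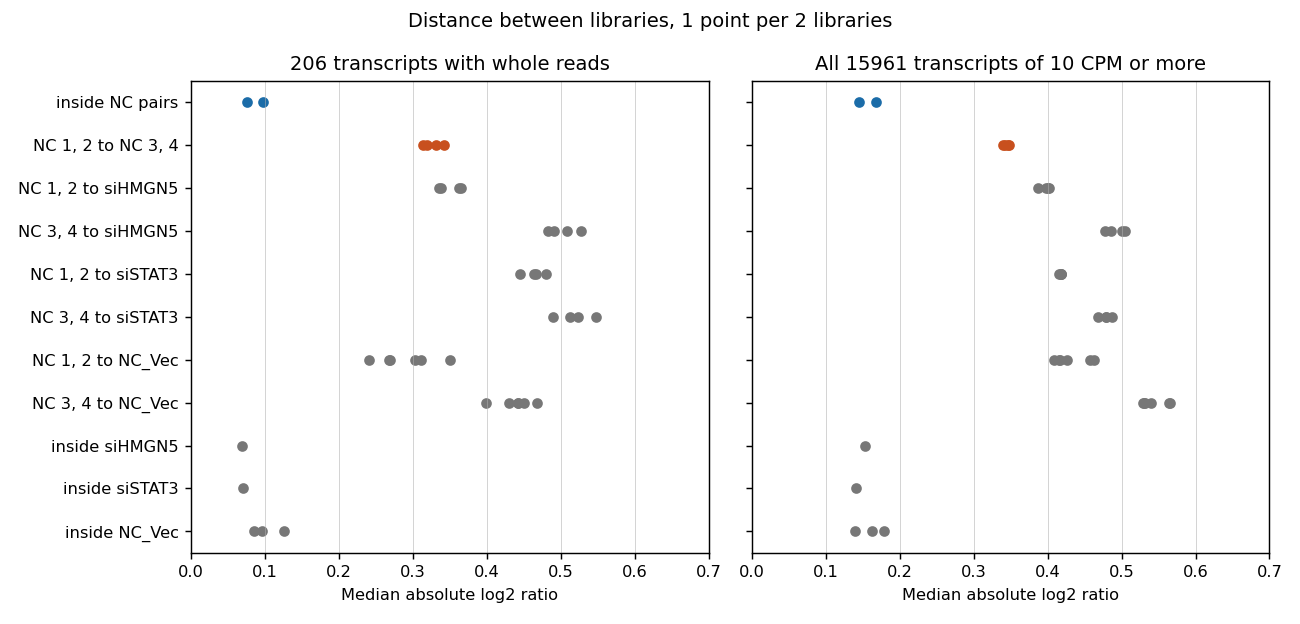
Median absolute log2 ratio (horizontal axis) between 2 libraries, 1 point for each combination of libraries, for the 206 transcripts with whole reads (left) and all 15961 transcripts of at least 10 CPM (right). Points inside the NC pairs lie at 0.08 and 0.10 on the left, and those between the NC pairs at 0.31 to 0.34, close to the distance from NC replicates 1 and 2 to siHMGN5.

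By the median absolute log2 ratio, the distance from NC replicates 1 and 2 to siHMGN5 was close to that between the control pairs. The other distances from controls to cells with STAT3 or HMGN5 siRNA were larger by this ratio. From NC replicates 1 and 2 to the siHMGN5 libraries the median absolute log2 ratio over the 206 transcripts was 0.34 to 0.37, and to the siSTAT3 libraries 0.44 to 0.48. From NC replicates 3 and 4 the same distances were larger, at 0.48 to 0.53 and 0.49 to 0.55. To the NC_Vec libraries it was 0.24 to 0.35 from NC replicates 1 and 2 and 0.40 to 0.47 from NC replicates 3 and 4. The plot of distances between libraries shows these ranges, and distances inside the other groups of 0.07 in siHMGN5, 0.07 in siSTAT3 and 0.09 to 0.13 in NC_Vec, whose upper end was above both NC pairs. By this measure siHMGN5, siSTAT3 and NC_Vec were nearer to NC replicates 1 and 2 than to NC replicates 3 and 4, although NC_Vec also carries a vector. The vector cells with STAT3 siRNA were far from both pairs, with siSTAT3_Vec at 0.52 to 0.56 and 0.55 to 0.59 and siSTAT3_HMGN5 at 0.56 to 0.61 from either. Other measures over the 206 gave another order. The SD of log2 ratios was 0.82 to 0.85 between the control pairs. From NC replicates 1 and 2 it was 0.69 to 0.72 to siHMGN5 and 0.81 to 0.84 to siSTAT3. Levels correlated at 0.79 between the pairs, and with NC replicates 1 and 2 at 0.84 to 0.86 in siHMGN5 and 0.81 to 0.82 in siSTAT3. From these replicates 23 to 27 transcripts differed 2-fold or more in siHMGN5 and 40 to 46 in siSTAT3.

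In all 15961 transcripts of at least 10 CPM, the distance between the pairs was about the same, but libraries of 1 pair were further apart. The median absolute log2 ratio was 0.14 and 0.17 inside the pairs and 0.34 to 0.35 between them, and counting noise alone would give 0.06. Inside a pair, 564 and 616 transcripts (3.53% and 3.86%) differed 2-fold or more, against 1774 to 1837 between the pairs (11.1% to 11.5%). From NC replicates 1 and 2 to siHMGN5 both measures were above those between the pairs. The median was 0.39 to 0.40, and 2240 to 2334 transcripts (14.0% to 14.6%) differed 2-fold or more. Levels of log2 CPM correlated at 0.88 inside both pairs and at 0.77 to 0.79 between them, and at 0.79 between NC replicates 1 and 2 and siHMGN5. These correlations run across transcripts of the same libraries, which are not independent replicates. Over these transcripts, a median of 68.4% of the variation over the 4 controls lay between the pairs, again without a reference share.

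The 4 transcripts below had the largest differences in each direction among those of at least 10 CPM with whole reads and a call. They are shown because whole numbers in every control give no sign that the estimation model divided their reads with another transcript. Each was tested in a fit of the 8 libraries without a vector, with the pairs as separate groups (edgeR quasi-likelihood test, adjusted over all transcripts tested).

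ENST00000404377.3, of 2008 bases, was almost unread in one control pair and abundant in the other. It had 4 and 11 reads (0.203 and 0.574 CPM) in NC replicates 1 and 2 and 1271 and 1019 reads (67.0 and 53.4 CPM) in NC replicates 3 and 4. The difference was 153-fold (log2 fold change 7.26 ± 0.52, SE, edgeR adjusted p = 0.005). Its size depends on the few reads of the low pair. The log2 fold change was 6.69 without NC replicate 1 and 8.17 without NC replicate 2. The treated libraries without a vector were low like NC replicates 1 and 2, at 0.246 and 0.202 CPM in siHMGN5 and 0.779 and 1.1 CPM in siSTAT3, on a scale set over all 17 libraries. In the cells with a vector it lay at 5.63 ± 0.676 CPM in NC_Vec (SD, n = 3), at 54.4 ± 2.02 CPM in siSTAT3_Vec (SD, n = 3) and at 59.9 ± 5.13 CPM in siSTAT3_HMGN5 (SD, n = 3). NC replicates 3 and 4 therefore overlapped in level with vector cells given STAT3 siRNA and with no other control or siRNA group.

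ENST00000253063.3, of 3453 bases, was also higher in NC replicates 3 and 4. Its levels were 7.06 and 9.28 CPM in NC replicates 1 and 2 and 40.3 and 41.6 CPM in NC replicates 3 and 4, a 5.01-fold difference (log2 fold change 2.33 ± 0.16, SE, edgeR adjusted p = 0.00486). The siHMGN5 libraries (13.1 and 14.1 CPM) and the siSTAT3 libraries (18.3 and 21.1 CPM) lay between the pairs and overlapped neither. NC_Vec, at 43.4 ± 1.14 CPM (SD, n = 3), was near NC replicates 3 and 4, and siSTAT3_Vec was higher than both at 73.4 ± 1.16 CPM (SD, n = 3).

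ENST00000367029.4, of 866 bases, was lower in NC replicates 3 and 4. Its levels were 76.7 and 82.5 CPM in NC replicates 1 and 2 and 14.1 and 12.6 CPM in NC replicates 3 and 4, a 5.97-fold difference (log2 fold change -2.58 ± 0.08, SE, edgeR adjusted p = 0.000987). The siHMGN5 libraries lay between the pairs, at 28.9 and 29.8 CPM. The siSTAT3 libraries were above both pairs, at 125 and 134 CPM, as was NC_Vec at 194 ± 21.03 CPM (SD, n = 3).

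ENST00000368223.3, of 5558 bases, was the other large fall, from 93.0 and 91.3 CPM in NC replicates 1 and 2 to 18.9 and 18.3 CPM in NC replicates 3 and 4. The difference was 4.96-fold (log2 fold change -2.31 ± 0.06, SE, edgeR adjusted p = 0.000874). All treated groups and NC_Vec lay between the pairs, at 52.5 and 51.7 CPM in siHMGN5, 38.3 and 38.9 CPM in siSTAT3 and 48.6 ± 1.14 CPM in NC_Vec (SD, n = 3). The siSTAT3_HMGN5 libraries came nearest to NC replicates 3 and 4, at 23.2 ± 0.851 CPM (SD, n = 3), without overlap.

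**Figure D2:**
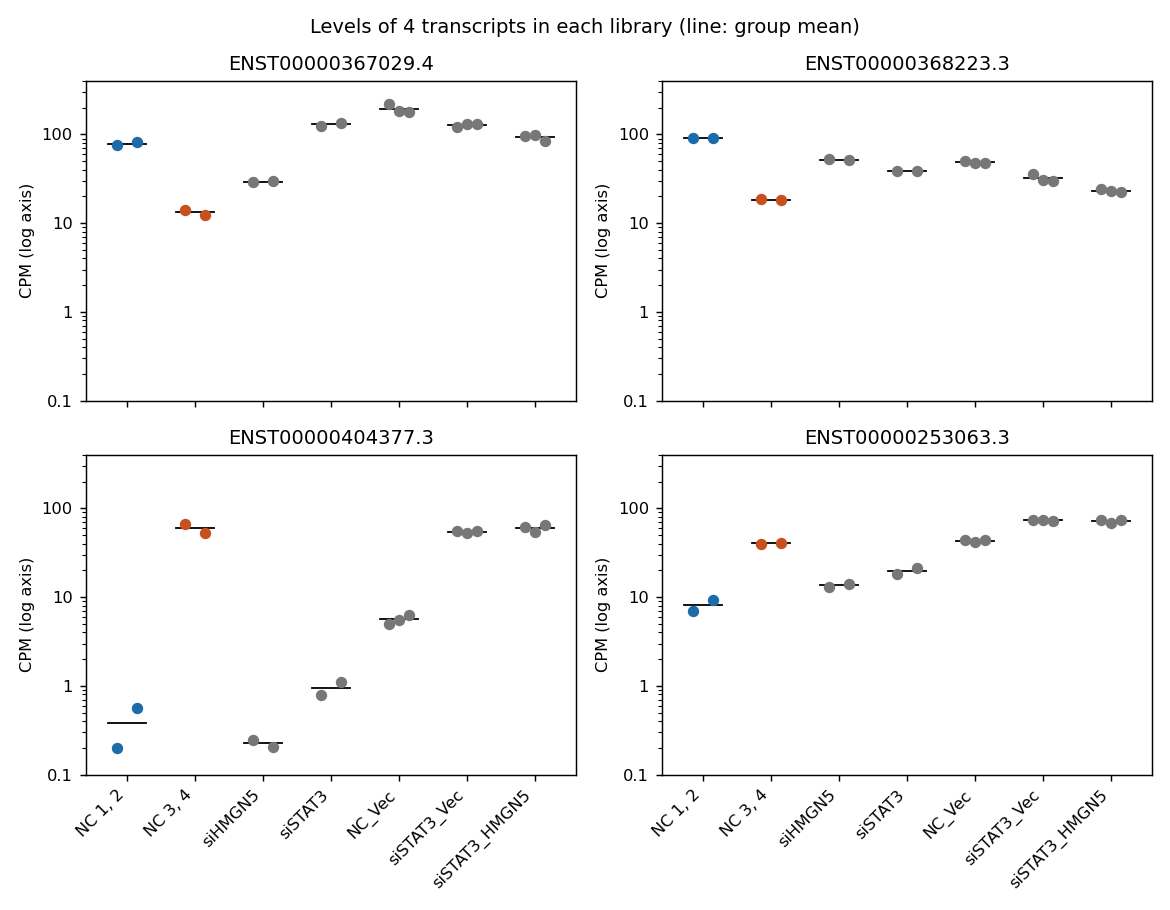
CPM (log axis, scaled over all 17 libraries) of the 4 transcripts in every library, with points for libraries and a line for each group mean. NC replicates 1 and 2 (blue) and NC replicates 3 and 4 (orange) do not overlap in any panel, and in ENST00000404377.3 their means are 0.385 and 59.7 CPM.

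Per length, the order of the 4 transcripts differed between the pairs. In TPM, a level scaled by effective length, means in NC replicates 1 and 2 were 70.7 for ENST00000367029.4, 9.48 for ENST00000368223.3, 1.39 for ENST00000253063.3 and 0.12 for ENST00000404377.3. In NC replicates 3 and 4 ENST00000404377.3 came first at 18.99 TPM, followed by ENST00000367029.4 at 11.7, ENST00000253063.3 at 6.91 and ENST00000368223.3 at 1.88 TPM. In each of the 4 transcripts the SD inside a pair was at most 1.57 CPM in the pair with the lower level and at most 9.6 CPM in the pair with the higher one. Over all 4 controls taken as 1 group it was 18.97 to 42.5 CPM, or 76.7% to 115% of the mean. Inside NC replicates 1 and 2 it was 67.4% of the mean for ENST00000404377.3 and 19.2% for ENST00000253063.3, both low there. In every other case inside a pair it was at most 15.9%. The transcripts were chosen for the difference between the pairs, which favours a changed order and a wide spread over the 4 controls.

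The fold changes of the knockdowns against each pair are set side by side for these transcripts. They differ between the pairs by construction, since the transcripts were chosen for the difference between the controls. The comparisons share control or treated libraries and are given side by side only. ENST00000367029.4 was 2.66-fold lower in siHMGN5 than in NC replicates 1 and 2 (log2 fold change -1.41, edgeR adjusted p = 0.00179) and 2.25-fold higher than in NC replicates 3 and 4 (1.17, adjusted p = 0.00161). For ENST00000368223.3 the siSTAT3 difference turned from -1.22 to 1.09 on the log2 scale (edgeR adjusted p = 0.000793 and 0.00069), and the siHMGN5 difference from -0.79 to 1.52 (adjusted p = 0.00256 and 4e-04). ENST00000253063.3 in siSTAT3 went from 1.30 to -1.03 (edgeR adjusted p = 0.011 and 0.0161), and in siHMGN5 from 0.76 to -1.56 (adjusted p = 0.0584 and 0.00473). ENST00000367029.4 in siSTAT3 was higher than both pairs, by 0.74 and 3.31 (edgeR adjusted p = 0.00762 and 0.000232). For ENST00000404377.3 neither knockdown differed from NC replicates 1 and 2 past the threshold (edgeR adjusted p = 0.545 and 0.206), while both were lower than NC replicates 3 and 4, 256-fold and 62.3-fold (adjusted p = 0.00154 and 0.00235).

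Of the 206 abundant transcripts with whole reads, 76 differed between the pairs, 32 higher (15.5%) and 44 lower (21.4%) in NC replicates 3 and 4. That is 36.9% called, against 14.3% of all abundant transcripts (2288 of 15961) and 4.39% of all 74346 tested. Log2 fold changes of the 206 had a median of -0.03, with 90% of them between -1.34 and 0.87, and 140 (68.0%) differed less than 1.5-fold. Among the 76, the median rise was 0.67 and the median fall -0.995 on the log2 scale. Falls of 2-fold or more numbered 22 and such rises 6. After ENST00000404377.3 and ENST00000253063.3 the next rise was 1.60 on the log2 scale, so ENST00000404377.3 was the only one of the 206 called with an 8-fold or larger difference. None of the 76 pairs of values overlapped, and in this class 171 of 206 (83%) did not overlap, against 66.5% of all transcripts of at least 10 CPM.

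Among abundant transcripts as a whole, 1118 were higher (7% of those of at least 10 CPM) and 1170 lower (7.33%) in NC replicates 3 and 4. At least 2-fold differences were seen for 312 and 478 of these. The balance of directions moved with the method and the libraries. DESeq2 gave 2998 higher and 2308 lower, and edgeR on all 17 libraries gave 1864 and 1571. Leaving out NC replicate 1, 2, 3 or 4 in turn gave 242, 218, 324 and 396 higher against 358, 288, 546 and 579 lower. The median absolute log2 fold change of the 2288 was 0.83. It was 0.83 as well with transcripts unread in a pair set to the chosen limit of 3 reads. All 15961 had a median log2 fold change of 0.07.

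The share of transcripts that differed rose with their level. It was 0.957% under 2 CPM, 2.8% from 2 to 10 CPM, 10.7% from 10 to 50 CPM, 23.9% from 50 to 200 CPM and 32.9% at 200 CPM or more, where 191 of 580 were called. The size of the called differences fell with level, from a median absolute log2 fold change of 0.98 at 10 to 50 CPM to 0.65 and 0.55 in the 2 classes above. Rises outnumbered falls at 50 to 200 CPM (466 and 346) and at 200 CPM or more (116 and 75), and falls outnumbered rises at 10 to 50 CPM (749 and 536). Higher levels bring more reads and so a smaller error, and the part of depth in these shares was not tested.

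**Figure D3:**
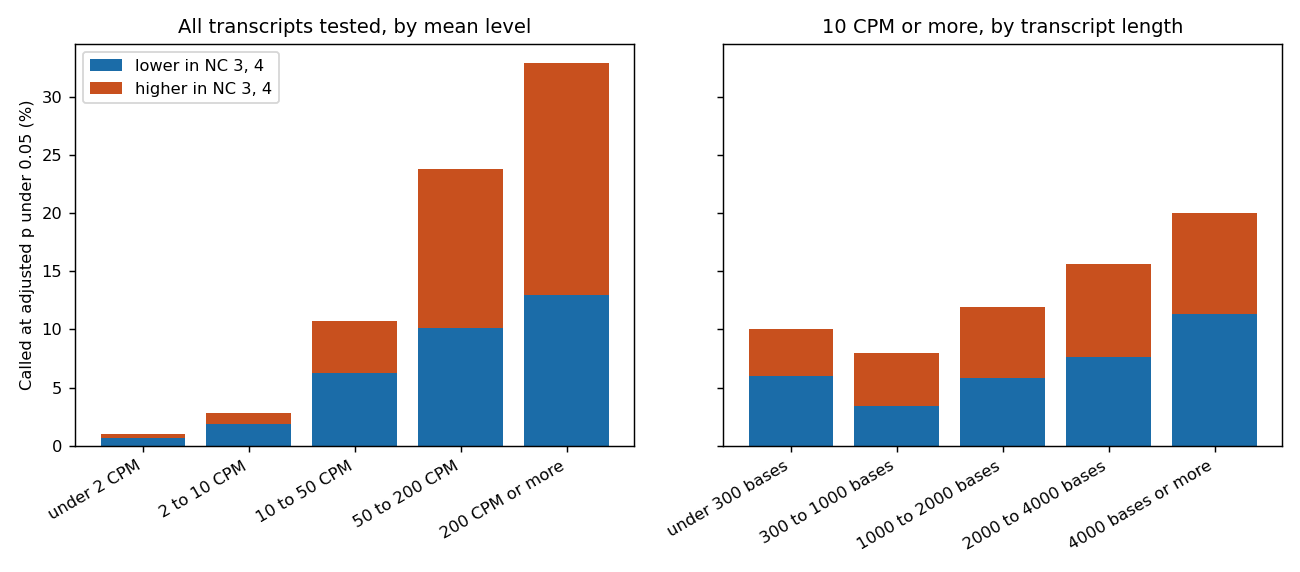
Percentage of transcripts called at an adjusted p under 0.05 (vertical axis) by mean level in the controls (left, all tested) and by length among those of at least 10 CPM (right), split into lower (blue) and higher (orange) in NC replicates 3 and 4. The share called rises to 32.9% at 200 CPM or more and to 20.0% at 4000 bases or more.

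By length, 7.95% of abundant transcripts of 300 to 1000 bases were called, 323 of 2700 of those of 1000 to 2000 bases, 15.6% of those of 2000 to 4000 bases and 20.0% of longer ones. Under 300 bases it was 15 of 150 (10.0%). The median log2 fold change drifted little with length, from 0.10 at 300 to 1000 bases to 0.01 at 4000 bases or more. In the longest class falls outnumbered rises, at 519 and 401. In transcripts with whole reads the same shares were 25% (3 of 12), 31% (13 of 42), 41% (32 of 78) and 37.8% (28 of 74) in order of length from 300 bases up. The effective length that the authors' model assigned to abundant transcripts differed between the pairs by a median of 0.01 on the log2 scale, and across transcripts it correlated with the fold change at 0.0003.

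The 10 most abundant transcripts took 5.94% to 6.97% of the reads of a control, and 1 of them differed between the pairs. It ranked seventh, was 2290 bases long and had divided reads, with 2141 and 2365 CPM in NC replicates 1 and 2 and 6260 and 5593 CPM in NC replicates 3 and 4 (log2 fold change 1.395 ± 0.07, SE, edgeR adjusted p = 0.00283). The 3 at the head of the list were between -0.38 and -0.27 on the log2 scale, with adjusted p of 0.167 to 0.294. For each of these 3, NC replicate 2 was the highest of the controls, and NC replicates 3 and 4 were below both others. Of the 100 most abundant, 26 differed (16 higher and 10 lower), and 5 of these did so 2-fold or more.

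All-or-none differences were also counted. Of the 74346 transcripts tested, 47 had at least 10 CPM in both NC replicates 3 and 4 and at most 3 reads in each of NC replicates 1 and 2, and 67 had the reverse pattern. All of these were at exactly 0 in both libraries of the low pair, none had whole reads, and 16 and 31 passed the test. A looser rule was used inside a pair, with 1 library at 10 CPM or more and the other at 3 reads or fewer. It asks for 1 library against 1, not 2 against 2, so the counts of the 2 rules are not comparable. The looser rule was met by 464 transcripts in NC replicates 1 and 2 and by 469 in NC replicates 3 and 4, of which 0 and 2 had whole reads. These 0 and 2 were counted over all 74346 transcripts tested, of which 1888 had whole reads. Of the 15961 abundant transcripts, only 206 had whole reads. Inside a pair, at most 1 of the 206 differed 2-fold or more (0.485%), against 564 and 616 of the 15961 (3.53% and 3.86%). Whether the counts of 0 and 2 set the classes apart was not tested. Presence in one library and absence in another was also seen between replicates of 1 pair. ENST00000404377.3 does not meet the rule between the pairs, since both low libraries had more than 3 reads.

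**Figure D4:**
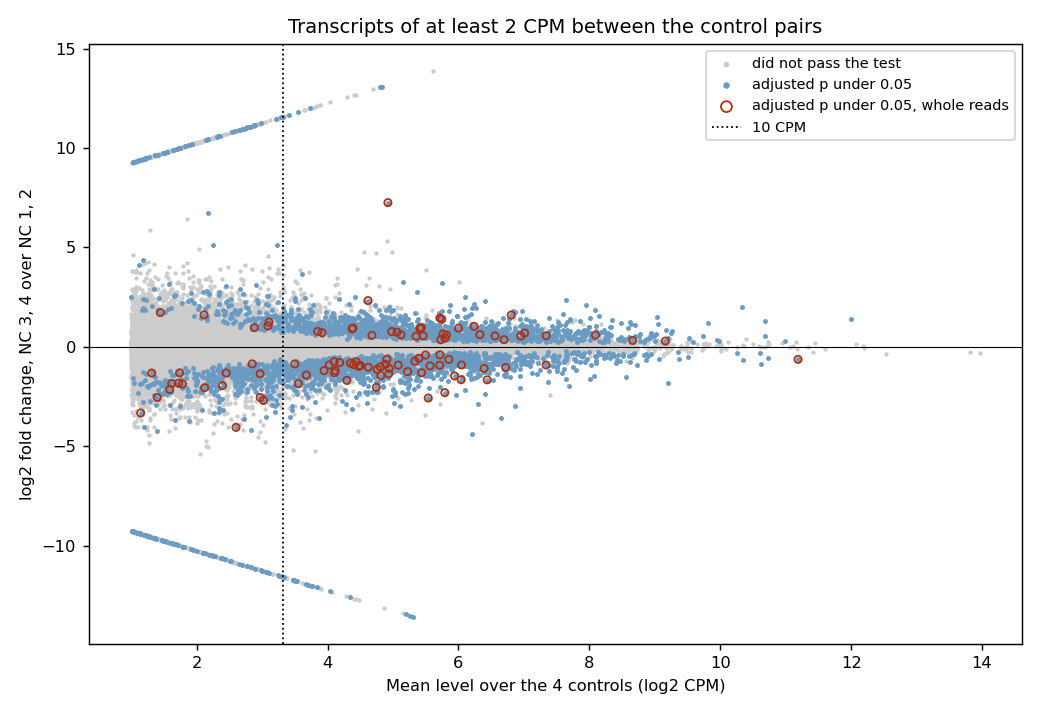
Log2 fold change of NC replicates 3 and 4 over NC replicates 1 and 2 (vertical axis) against mean level (horizontal axis, log2 CPM) for transcripts of at least 2 CPM, with calls in blue and calls with whole reads circled in red. The 2 slanted lines at the top and bottom are transcripts unread in one pair, whose fitted values depend on the prior count, and the circled calls of at least 10 CPM lie between -2.58 and 7.26.

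Where the other groups lay at the transcripts that separate the controls was read from group means of log2 levels. At the 76 with whole reads, siHMGN5 was nearer to NC replicates 1 and 2 for 54 (71.1%), siSTAT3 for 47 (61.8%) and NC_Vec for 58 (76.3%). At all 2288 abundant calls the shares were 69.6%, 63.5% and 70.7%. The 2 groups of vector cells with STAT3 siRNA were divided, with 39 and 35 of the 76 nearer to NC replicates 1 and 2 in siSTAT3_Vec and siSTAT3_HMGN5. The calls were chosen on the controls, and no test was made of these shares.

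Many of these transcripts have a level in treated cells that is bracketed by the controls. The siHMGN5 mean lay between the pairs for 1150 of the 2288 (50.3%) and the siSTAT3 mean for 1111 (48.6%). Of the 76 with whole reads the numbers were 33 and 29. Shares were similar in the vector cells, at 43.7% of the 2288 in NC_Vec, 40.7% in siSTAT3_Vec and 38.1% in siSTAT3_HMGN5. For NC_Vec it was 36 of the 76. Transcripts in this position are above one control pair and below the other, as ENST00000368223.3 was.

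**Figure D5:**
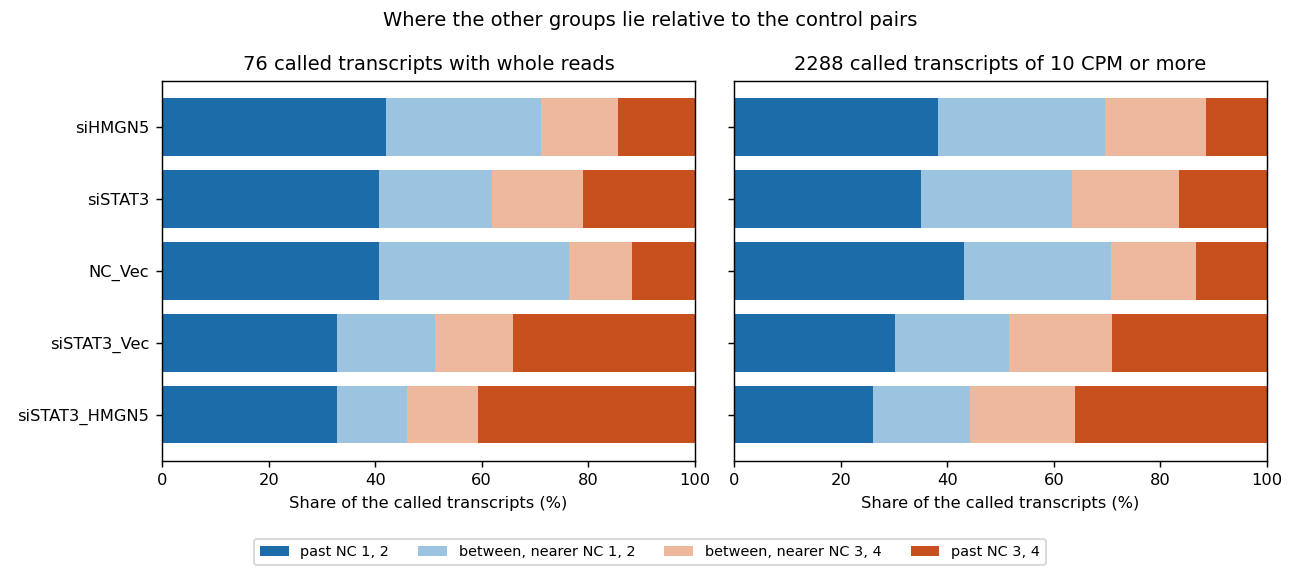
Share of the called transcripts (horizontal axis, %) at which a group's mean log2 level lies past NC replicates 1 and 2, between the pairs and nearer to 1 and 2, between and nearer to 3 and 4, or past NC replicates 3 and 4. In siHMGN5, siSTAT3 and NC_Vec the 2 blue parts make up 61.8% to 76.3% of the 76 transcripts with whole reads.

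Treating the 4 controls as 1 group raised the estimated variation between replicates in the 8 libraries without a vector. The median biological coefficient of variation, the replicate spread beyond counting noise, went from 13.2% with separate pairs to 20.0% with 1 control group for the 206 transcripts with whole reads, and from 18.0% to 23.1% for all abundant ones. The tests above rest on 2 libraries against 2, for which an exact two-sided permutation test cannot go below 0.333. Their error was therefore shared with siHMGN5 and siSTAT3, which leaves 4 residual degrees of freedom. With the 4 controls alone in the fit, no transcript passed (edgeR quasi-likelihood test, 62750 tested, 11420 at an unadjusted p under 0.05), where DESeq2 in the 8 libraries called 9816 and limma-voom 3429. In that fit the 4 transcripts kept their direction, with adjusted p of 0.0717 to 0.0729. Leaving out NC replicate 1, 2, 3 or 4 left 916, 770, 1304 or 1525 calls in place of 3262, and 31, 20, 38 or 45 of the class with whole reads in place of 76, with all 4 named transcripts still past the threshold.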

How the data were processed

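RNA-seq tables of 17 libraries were used, and the 2 H3K27ac samples were not analysed here. Per the file headers, a table lists the length, effective length, TPM and estimated reads of 175775 transcripts. The estimated counts that the authors deposited need not be whole, because a model divides reads that fit several transcripts. The TPM that the authors deposited is relative to effective length. The submitters' processing notes name Salmon 1.4.0 and the build GRCh38. Mapping options are not given in the sources used here.

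Rounded counts of the 8 libraries without a vector were fitted with edgeR 4.0.16 in R 4.3.3, using TMM scaling, the filterByExpr filter and a quasi-likelihood fit (glmQLFit, glmQLFTest) with 1 mean per group. Adjustment was by Benjamini-Hochberg over 74346 transcripts, with a threshold of 0.05. The code was tested on simulated data. Alternatives used DESeq2 1.42.0 and limma 3.58.1. A standard error is the log2 fold change over the square root of the F statistic. Distances between libraries used log2(CPM + 0.5). CPM was scaled over the 8 libraries for the controls and over all 17 for other groups and distances.

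The contrast of the pairs, the classes and the lists were chosen with earlier results of these data known. Named transcripts were the 2 largest rises and the 2 largest falls among called transcripts of 10 CPM or more (mean of the 4 controls) whose pairs did not overlap and whose reads were whole in the controls. The planned rule named genes by symbol first. It was not used, and sums per gene, gene lists and marker checks were not run, since no table pairs the transcripts with genes. Replicates are not stated to be separate cultures, so a p-value covers the spread of these libraries alone, which may be technical.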

Additional observations from a re-analysis of the deposited data

Results flagged for a closer look

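In 25 measures checked over the 4 controls as 1 group (library make-up, the 4 named and the 10 most abundant transcripts), 2 had a library far from the other 3, and chance alone flags about 1 in 20. NC replicate 2 had 6.97% of its reads on the 10 most abundant transcripts, against 5.94% to 5.98% in the others. NC replicate 1 had 35.8% of its reads on the 1000 most abundant transcripts, against 36.8% to 37.0% in the others. Both are differences inside NC replicates 1 and 2, not between the pairs.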

How the results depend on the processing

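The 4 named transcripts kept their direction in all 11 alternative fits and their call in 10 of them. The exception was the fit of the 4 NC libraries alone, where their log2 fold changes were -2.59, -2.33, 7.24 and 2.31. With those libraries alone 0 transcripts were called in all, at 10 CPM or more and with whole reads. DESeq2 called 9816 transcripts, 5306 of them at 10 CPM or more, and the fit of all 17 libraries 5448 and 3435. Leaving out 1 control gave 770 to 1525 calls, 506 to 975 at 10 CPM or more and 20 to 45 with whole reads. A floor of 50 CPM gave 1003 abundant calls and a 2-fold limit 790, in place of 2288. Scaling by DESeq2 size factors, limma-voom, no low-count filter and the effective length offset moved no count by over 1.5 times (2210 to 3477 calls in all). Of the 3262 calls, 2679 were also made by limma-voom and 2210 without the filter. No paired analysis was possible because the control pairs share no replicate number. The alternatives per gene were not run, since the transcripts have no gene pairing. Of the 631 calls at 2 to 10 CPM, 587 were 2-fold or larger, and the part of depth in this was not tested.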
